A study of Mus musculus with 47 samples.

Results

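The genes described are the autosomal genes of mouse kidney whose sex difference was not the same in CAST/EiJ and C57BL/6J mice. For each gene the difference between females and males (F minus M, on the log2 scale) was estimated in each strain as the mean over both diets, and the value in C57BL/6J was subtracted from that in CAST/EiJ. This difference of differences is called the interaction. Of 18195 autosomal genes tested, 2422 had an interaction at an adjusted p under 0.05, which is 13.3%. Such genes are called below. They were members because of this test, so their number is a count of calls and not a further result.

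The measurements came from 31 of the 47 libraries of the series, 16 from C57BL/6J, the common laboratory strain, and 15 from CAST/EiJ, a strain derived from wild-caught castaneus mice. All mice of these groups are labelled as wild type, untreated apart from diet, and the tissue as metanephros, with kidney in the series title. Each strain and sex was divided between a diet with 10% fat and fiber and a diet with 44% fat and fiber, begun at 6 weeks of age, with tissue taken at 15 weeks. There were 4 libraries in each group of strain, sex and diet, except 3 for CAST/EiJ males on 10% fat. Over the diets this gave 8 C57BL/6J females, 8 C57BL/6J males, 8 CAST/EiJ females and 7 CAST/EiJ males. The labels do not say whether each library is a separate animal, so p-values measure the spread between libraries.

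The kidney is one of the more sexually dimorphic organs of the mouse outside the reproductive system. Much of the dimorphism lies in the proximal tubule, where androgens acting through the androgen receptor raise a set of genes in males, and where transporters and enzymes of drug, steroid and lipid metabolism are known to differ between the sexes. In the liver a related set of genes follows the sex-specific pattern of growth hormone secretion, which signals through JAK2 and STAT5.

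The 31 libraries held 34.4 M to 58.4 M counts (median 44.6 M, where M is 1e6), with 11.1% to 15.5% in mitochondrial genes. Xist measured 863 to 1370 CPM (counts per 1e6 counts) in females and at most 2.43 CPM in males, and Ddx3y at most 0.0702 CPM in females and 59.7 to 99.4 CPM in males, so no library went against its sex label. The proximal tubule gene Lrp2 measured at least 4940 CPM and the thick ascending limb gene Umod at least 2290 CPM in each library. Among the named genes, 1 library of CAST/EiJ males (44% fat, replicate 4) and 1 of C57BL/6J males (44% fat, replicate 3) lay apart from the other libraries of their strain and sex most often, in 11 and 5 of 344 combinations of gene, strain and sex. Without both, 2401 genes were called, 2145 of them among the 2422, and each called gene among those examined library by library was still called.

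Each strain alone had a large sex difference. In C57BL/6J 8708 autosomal genes (47.9% of those tested) differed between the sexes, and in CAST/EiJ 8658 (47.6%). Across all 18195 genes the F minus M values of the strains had a Pearson correlation of 0.61 and a Spearman correlation of 0.62, as a description across genes, which share the same libraries. The median interaction over all tested genes was -0.0039, which the scaling of the libraries holds near 0. With DESeq2 size factors it was 0.0102, and 49.9% of called genes had a higher F minus M in CAST/EiJ, against 45.1% here. Of the called genes, 1093 (6.01% of those tested) had a higher F minus M in CAST/EiJ and 1329 (7.30%) a lower one, and 503 (2.76%) had an interaction of at least 1 in absolute log2 value.

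The called genes were divided by what the same fit called in each strain. A sex difference was lost in CAST/EiJ where it was called in C57BL/6J only (637 genes, 3.50% of those tested) and gained where it was called in CAST/EiJ only (607 genes, 3.34%). It was weakened (476 genes, 2.62%) or strengthened (383 genes, 2.10%) where both strains were called in the same direction, and reversed (297 genes, 1.63%) where they were called in opposite directions. For 22 genes (0.121%) neither strain's own difference was called. The classes come from 3 contrasts of 1 fit and are descriptions. A lost difference is one that did not pass the test in CAST/EiJ, not one shown to be 0, although 578 of the 637 lost genes had an F minus M under 0.3 in absolute log2 value there.

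**Figure D1:**
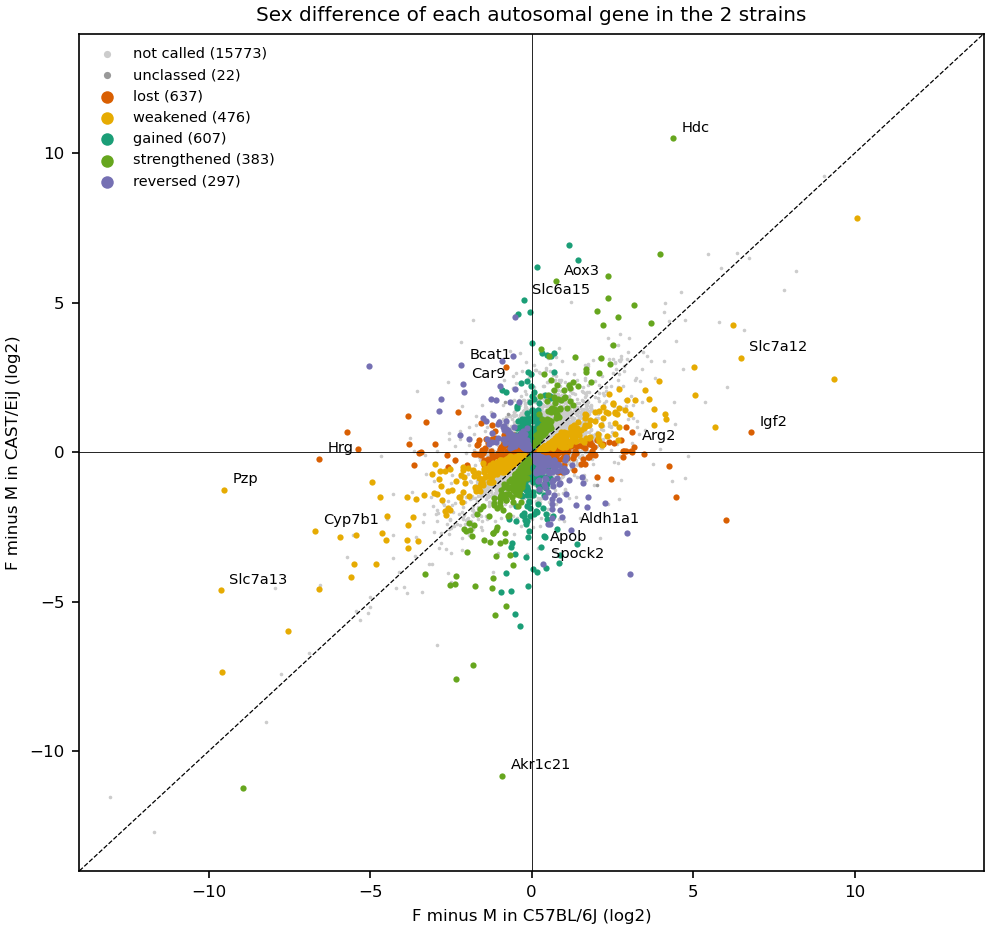
F minus M (log2) of each of 18195 tested autosomal genes in C57BL/6J on the horizontal axis and in CAST/EiJ on the vertical axis, with colours for the classes and a dashed line where both are equal. Lost genes lie along the horizontal axis line, gained genes along the vertical one, and reversed genes, such as Bcat1, Car9, Aldh1a1 and Spock2, in the upper left and lower right.

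Lost genes were split evenly by the sex that had been higher in C57BL/6J, with 314 higher in females and 323 in males. Gained genes were higher in CAST/EiJ males in 367 cases and in females in 240. Strengthened genes were male-biased in 262 of 383 cases, and reversed genes were female-biased in C57BL/6J in 174 of 297. Over all tested genes, F minus M was called higher in 4550 and lower in 4158 genes in C57BL/6J. In CAST/EiJ these numbers were 4284 and 4374. The share of called genes with a higher interaction was 45.1% here and 49.9% with DESeq2 size factors. The class splits were not examined under that scaling. The strain difference was larger in males than in females for 61% of called genes, against 55% of all tested genes. It was larger in males for 69% of the reversed genes, 64.1% of the gained genes and 51.7% of the weakened genes. Whether CAST/EiJ reads were aligned to the reference strain or to a strain-specific genome is not stated in the sources used here. The part of alignment in the level differences between the strains, here and below, was not tested.

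**Figure D2:**
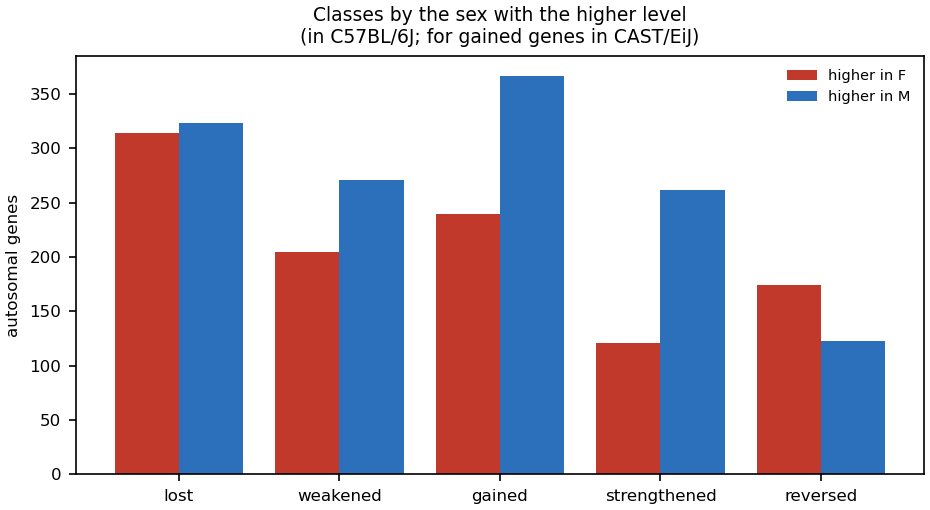
Number of autosomal genes in each class, as bars that start at 0, split by the sex with the higher level in C57BL/6J (in CAST/EiJ for gained genes). Male-biased genes outnumber female-biased ones most among strengthened (262 against 121) and gained genes (367 against 240).

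Genes with the strongest dimorphism in C57BL/6J were followed into CAST/EiJ. Of 182 genes at least 4-fold higher in C57BL/6J females (an F minus M of at least 2), 22 were lost, 41 weakened, 3 reversed and 13 strengthened in CAST/EiJ, and 103 were not called. Their median F minus M was 2.79 in C57BL/6J and 1.60 in CAST/EiJ. Of 158 genes as strongly higher in C57BL/6J males, 14 were lost, 50 weakened, 7 reversed and 8 strengthened, with medians of -2.93 and -2.07. These genes were chosen by their C57BL/6J values, which also enter the interaction. A choice of this kind pulls those values apart from values measured elsewhere. The class counts and the medians are therefore descriptions, and cannot show that strong dimorphism was smaller in CAST/EiJ.

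Promoter sequence was examined in the 250 bases before the annotated start, from RefSeq (GRCm38.p6), which holds the reference strain C57BL/6J. A window was found for 12023 of 18177 tested symbols. The motifs searched on both strands were AGAACA (the androgen receptor half-site), the full element of androgen and glucocorticoid receptors, which contains the half-site, TTCNNNGAA (STAT5), CAAAGTCCA (HNF4A) and the palindromic HNF1 element. AGAACA was in 11% of all windows, in 13% of 437 genes that were male-biased in C57BL/6J and lost or weakened in CAST/EiJ, in 10.7% of 355 such female-biased genes and in 8.33% of 432 gained genes. TTCNNNGAA was in 6.16% of all windows and in 5.10% to 6.71% of those of the 5 classes, and CAAAGTCCA in 0.399% of all and 0.340% to 0.887% by class. The full receptor element was in 1 of all windows and the HNF1 element in 0.

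The windows of 1 leading gene of each class are shown so that the letters can be compared with the levels described below. Capitals mark matches. Hrg, which is high in both CAST/EiJ sexes and in C57BL/6J males, had none (chr16:22950822-22951071, plus strand). Pzp had 1 half-site (chr6:128526721-128526970, minus strand), and Slc22a26, high in CAST/EiJ males, had a STAT5 match and a half-site read on the other strand (chr19:7802668-7802917, minus strand). Akr1c21 (chr13:4573825-4574074, plus strand) and Bcat1 (chr6:145076158-145076407, minus strand) had none. Absence says only that these letters are not in this window of the reference strain, and the CAST/EiJ sequence was not analysed here.
Hrg: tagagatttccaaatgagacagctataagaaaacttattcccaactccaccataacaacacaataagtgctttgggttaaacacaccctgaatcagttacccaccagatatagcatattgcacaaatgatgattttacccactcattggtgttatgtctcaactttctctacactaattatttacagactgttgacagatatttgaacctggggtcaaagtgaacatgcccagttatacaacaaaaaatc
Pzp: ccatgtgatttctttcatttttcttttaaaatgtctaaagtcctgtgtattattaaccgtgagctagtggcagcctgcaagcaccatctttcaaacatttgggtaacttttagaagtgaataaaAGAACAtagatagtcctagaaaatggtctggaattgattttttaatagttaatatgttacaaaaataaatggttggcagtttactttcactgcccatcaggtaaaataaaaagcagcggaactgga
Slc22a26: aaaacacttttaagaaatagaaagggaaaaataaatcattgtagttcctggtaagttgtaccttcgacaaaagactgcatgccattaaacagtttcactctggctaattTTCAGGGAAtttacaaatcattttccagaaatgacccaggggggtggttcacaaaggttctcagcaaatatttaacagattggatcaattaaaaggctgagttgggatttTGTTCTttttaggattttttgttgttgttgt
Akr1c21: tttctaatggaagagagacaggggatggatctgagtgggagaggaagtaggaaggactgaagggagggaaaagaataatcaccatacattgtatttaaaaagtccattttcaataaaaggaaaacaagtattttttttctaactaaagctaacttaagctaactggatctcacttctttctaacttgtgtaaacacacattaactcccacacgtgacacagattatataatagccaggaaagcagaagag
Bcat1: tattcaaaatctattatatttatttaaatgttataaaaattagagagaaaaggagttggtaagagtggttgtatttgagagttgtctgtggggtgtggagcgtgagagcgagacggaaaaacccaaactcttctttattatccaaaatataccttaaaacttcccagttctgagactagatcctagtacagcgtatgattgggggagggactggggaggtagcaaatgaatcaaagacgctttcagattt

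Among the lost genes with at least 10 mean counts in each cell of strain and sex, Igf2 had the lowest interaction. Igf2 (ENSMUSG00000048583, GRCm38 chromosome 7, 142650766 to 142666816) encodes insulin-like growth factor, a growth factor of fetal life that is expressed from the paternal allele. It measured 49.8 to 299.9 CPM with a median of 213 CPM in C57BL/6J females and 1.59 to 2.27 CPM (median 1.82) in C57BL/6J males. In CAST/EiJ it measured 1.03 to 2.45 CPM (median 2.01) in females and 0.970 to 1.62 CPM (median 1.17) in males. High Igf2 was thus found in C57BL/6J females alone of these 4 cells of strain and sex, and the ranges of the CAST/EiJ sexes overlapped. Of all tested genes, 22.7% had sexes that did not overlap in C57BL/6J and 17.1% in CAST/EiJ. F minus M was 6.80 (SE 0.23) in C57BL/6J and 0.68 (SE 0.29, adjusted p 0.0560) in CAST/EiJ, and the interaction was -6.12 (SE 0.41, adjusted p 1.07e-13). In the third strain of the series, NZO/HlLtJ, Igf2 was also high in females, at 333.7 to 517 CPM against 1.30 to 2.10 CPM in males. Transcripts of Igf2 share 61.9% of their 31-base sequences with the overlapping gene Gm49394, so counts may be divided between them. As in every bulk tissue measurement here, more cells of a type and more RNA per cell cannot be told apart.

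In Akr1c18 and Scd1 it was also the female level that differed between the strains. Akr1c18, whose enzyme inactivates progesterone, measured 49.5 to 273.8 CPM (median 164) in C57BL/6J females and 9.65 to 20.2 CPM in each of the other 3 cells of strain and sex. Its interaction was -3.51 (SE 0.31, adjusted p 1.60e-10). It is also a marker of the adrenal cortex. Of 9 adrenal cortex markers 5 were in the table and 3 were tested, and Akr1c18 was the only one called, while their part in the result was not tested. Scd1, the stearoyl-CoA desaturase of fatty acid synthesis (chosen after its values were seen), had a median of 1150 CPM in C57BL/6J females, 147 CPM in C57BL/6J males, 239 CPM in CAST/EiJ females and 231 CPM in CAST/EiJ males.

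In Arg2 and Adamts8 it was the male level that differed. Arg2, the mitochondrial arginase (chromosome 12, 79130777 to 79156301), measured 24.2 to 38.3 CPM in C57BL/6J females and 2.35 to 3.996 CPM in C57BL/6J males, but 45.8 to 66.6 CPM in CAST/EiJ females and 38.4 to 60.1 CPM in CAST/EiJ males. CAST/EiJ males were higher than C57BL/6J males by 3.92 (log2, adjusted p 1.58e-23) and CAST/EiJ females higher than C57BL/6J females by 0.94. Both CAST/EiJ sexes thus lay above the C57BL/6J females. Adamts8, a secreted metalloprotease, had medians of 4.16 and 0.398 CPM in C57BL/6J females and males and 3.96 and 3.84 CPM in CAST/EiJ females and males. Exons of Arg2 overlap a gene on the opposite strand over 28.1% of their bases and those of Adamts8 over 10.6%, and the use of strand in counting is not given in the sources used here.

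Male-biased genes were lost in both ways as well. Hrg, a plasma glycoprotein rich in histidine (chromosome 16, 22951072 to 22961656), measured 0.0365 to 0.301 CPM in C57BL/6J females and 7.06 to 21.7 CPM in C57BL/6J males. In CAST/EiJ it measured 30.5 to 58.6 CPM in females and 32.2 to 121 CPM in males, so both sexes of that strain were above the C57BL/6J males. Its interaction was 6.37 (SE 0.47, adjusted p 1.53e-12). The C57BL/6J females held 57 counts of Hrg over 8 libraries, and the value was 2.85 on the deposited log2 matrix, so its size is less certain than its sign. Angptl7, a secreted angiopoietin-like protein, went the same way, with medians of 0.689 and 8.97 CPM in C57BL/6J females and males and 53.9 and 71.9 CPM in CAST/EiJ. Srd5a2, a steroid reductase that makes dihydrotestosterone from testosterone (chromosome 17, 74017706 to 74047916), was instead high in C57BL/6J males alone, at 3.73 to 24.5 CPM (median 8.61), with medians of 0.765 CPM in C57BL/6J females, 1.39 CPM in CAST/EiJ females and 1.17 CPM in CAST/EiJ males. Igf2bp1, a protein that binds RNA including that of Igf2, had an interaction of 2.03, with medians of 1.72 and 5.14 CPM in C57BL/6J females and males and 1.20 and 0.824 CPM in CAST/EiJ.

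**Figure D3:**
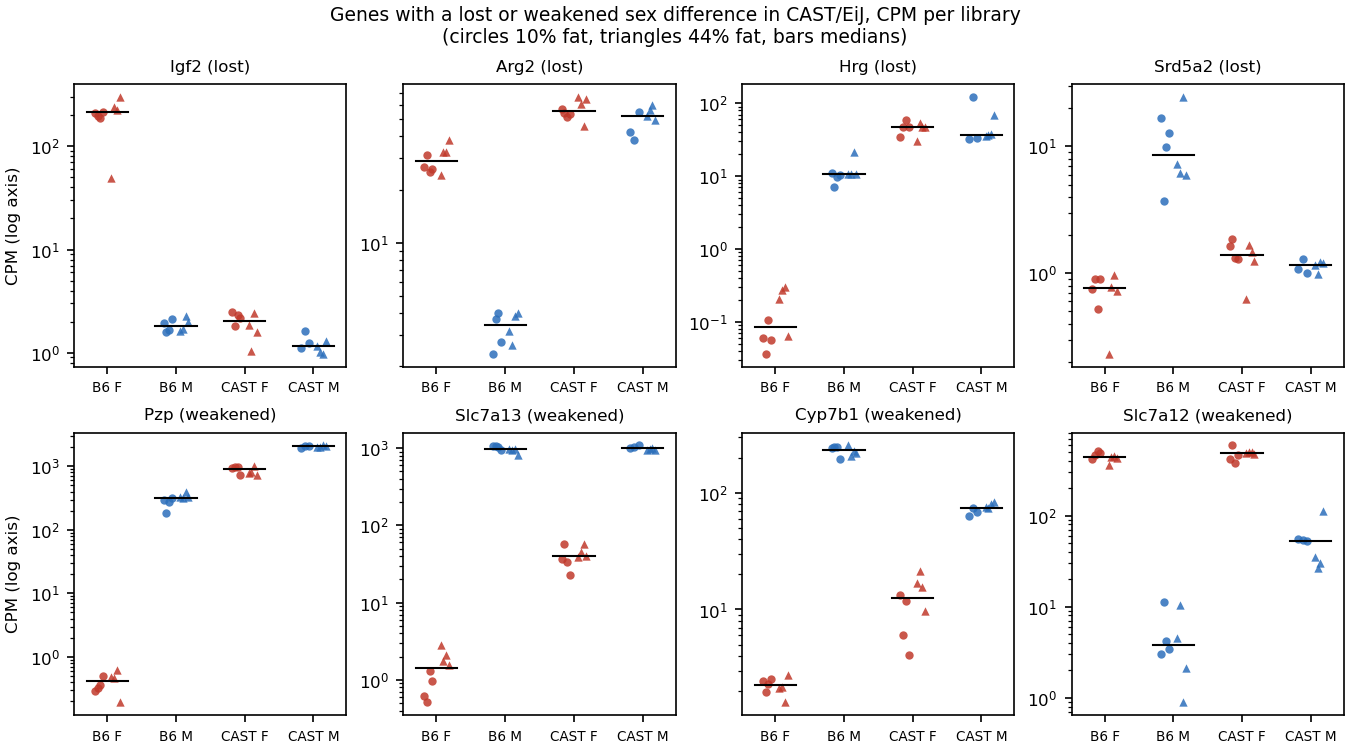
CPM of 8 genes in each library on log axes, for C57BL/6J (B6) and CAST/EiJ females (red) and males (blue). Circles are 10% fat, triangles 44% fat and bars the medians. In C57BL/6J the sexes are apart in each panel, while in CAST/EiJ they overlap for the lost genes (Igf2, Arg2, Hrg, Srd5a2) and stay apart by less for the weakened ones (Pzp, Slc7a13, Cyp7b1, Slc7a12).

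Of the weakened genes Pzp had the largest interaction, 8.28 (SE 0.18, adjusted p 3.04e-30). Pzp (chromosome 6, 128483567 to 128526720) encodes pregnancy zone protein, a proteinase inhibitor of plasma. It measured 0.192 to 0.621 CPM in C57BL/6J females and 181 to 394.9 CPM in C57BL/6J males. In CAST/EiJ it measured 728 to 1010 CPM in females and 1956 to 2141 CPM in males. F minus M was -9.53 in C57BL/6J and -1.25 in CAST/EiJ, and the CAST/EiJ sexes still did not overlap. The strain difference was 11.06 in females and 2.78 in males. The C57BL/6J females held 165 counts of Pzp over 8 libraries. Its interaction was as low as 5.775 in an alternative setting, so its size is less certain than its sign.

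In 3 further weakened genes the sex with the low level was higher in CAST/EiJ. Slc7a13, an amino acid transporter of the last proximal tubule segment (chromosome 4, 19818725 to 19842218), had overlapping levels in males of both strains (820 to 1079 CPM in C57BL/6J and 945.9 to 1087 CPM in CAST/EiJ). In females it measured 0.511 to 2.82 CPM in C57BL/6J and 22.8 to 57.7 CPM in CAST/EiJ, and its interaction was 5.01 (SE 0.19, adjusted p 3.57e-21). Slc7a12, another amino acid transporter (chromosome 3, 14480697 to 14505830), showed the opposite bias. It was high in females of both strains, with medians of 442 and 483 CPM, and its male level was 0.891 to 11.2 CPM in C57BL/6J and 26.3 to 111.8 CPM in CAST/EiJ (interaction -3.31, SE 0.43). Col19a1, a collagen chain, had medians of 0.197 and 6.30 CPM in C57BL/6J females and males and 13.3 and 27.2 CPM in CAST/EiJ, so both sexes were higher there. The C57BL/6J females held 89 counts of Col19a1 over 8 libraries. Its interaction was as low as 1.32 in an alternative setting, so its size is uncertain.

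Cyp7b1 came closer from both sides. This gene (chromosome 3, 18071950 to 18243338) encodes a hydroxylase of oxysterols and steroids. It measured 1.60 to 2.77 CPM in C57BL/6J females and 194.6 to 254.2 CPM in C57BL/6J males, against 4.07 to 21.6 CPM and 62.7 to 83.9 CPM in CAST/EiJ females and males. The strain difference was 2.41 in females and -1.67 in males, and F minus M went from -6.70 to -2.62. In NZO/HlLtJ it was -4.91.

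Among the gained genes, Slc6a15 was low in CAST/EiJ males alone. It encodes a transporter of neutral amino acids (chromosome 10, 103367808 to 103419378). In C57BL/6J it measured 27.5 to 67.8 CPM in females and 35.2 to 79.1 CPM in males, and the sexes overlapped. In CAST/EiJ it measured 18.1 to 47.7 CPM in females and 0.513 to 1.14 CPM in males, an F minus M of 5.10 (SE 0.30), and the interaction was 5.33 (SE 0.36, adjusted p 1.4e-13). NZO/HlLtJ males were at 19.4 to 49.0 CPM.

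Apob, the structural protein of low-density lipoproteins (chromosome 12, 7977648 to 8016835), was lower in both CAST/EiJ sexes and most so in females. It measured 701.3 to 1017 CPM in C57BL/6J females, 546.2 to 835.9 CPM in C57BL/6J males, 12.01 to 46.9 CPM in CAST/EiJ females and 188 to 288.3 CPM in CAST/EiJ males. F minus M was 0.31 (SE 0.13, adjusted p 0.0518) in C57BL/6J and -3.17 (SE 0.14) in CAST/EiJ. The difference in C57BL/6J missed the threshold only narrowly, and its 95% interval was 0.04 to 0.57.

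High male levels in CAST/EiJ marked 3 other gained genes. Slc22a26, an organic anion transporter (chromosome 19, 7781041 to 7802667), measured 211.5 to 267.5 CPM in CAST/EiJ males and no more than 79.5 CPM in the other 3 cells. Aldh1a7, an aldehyde dehydrogenase (chromosome 19, 20692953 to 20727562), measured 147.8 to 254.7 CPM in CAST/EiJ males and no more than 19.6 CPM in the other 3. F2, the gene of prothrombin, measured 20.2 to 29.4 CPM in CAST/EiJ males and no more than 1.61 CPM in the others. Their interactions were -4.31 (SE 0.33), -3.94 (SE 0.22) and -3.99 (SE 0.43). Aldh1a7 was male-biased in NZO/HlLtJ as well, with an F minus M of -4.60, while for Slc22a26 that value was -0.53.

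Gained genes that were higher in CAST/EiJ females included Dock2, an activator of Rac known from leukocytes, and Pik3c2g, a lipid kinase. Dock2 measured 13.5 to 21.1 CPM in CAST/EiJ females and no more than 6.999 CPM in the other 3 cells (interaction 2.63, SE 0.22). Of 11 macrophage markers 1 was called, and their summed level was 141 to 206 CPM in CAST/EiJ females and 154 to 208 CPM in CAST/EiJ males. Their part in the Dock2 value was not tested. Pik3c2g was lower in both CAST/EiJ sexes, with medians of 0.871 CPM in females and 0.328 CPM in males, against 6.998 and 7.53 CPM in C57BL/6J (interaction 1.47, SE 0.17).

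The lowest interaction of all named genes belonged to Akr1c21, in the strengthened class. Akr1c21 (chromosome 13, 4574075 to 4586541) encodes a hydroxysteroid dehydrogenase that acts on androgens. In CAST/EiJ females it measured 0.207 to 0.575 CPM, while the other cells measured 481.1 to 649.6 CPM in C57BL/6J females, 739 to 1217 CPM in C57BL/6J males and 547.8 to 718.2 CPM in CAST/EiJ males. F minus M was -0.91 (SE 0.10) in C57BL/6J and -10.82 (SE 0.16) in CAST/EiJ, and the interaction was -9.90 (SE 0.19, adjusted p 4.36e-32). The CAST/EiJ females held 126 counts of Akr1c21 over 8 libraries. Its interaction came as near to 0 as -7.21 in an alternative setting, so its size is less certain than its sign. NZO/HlLtJ females, at 5.61 to 14.8 CPM, lay between.

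Female-biased genes of the strengthened class were led by Hdc and Aox3. Hdc, the histidine decarboxylase that makes histamine (chromosome 2, 126593667 to 126619299), measured 16.1 to 134.6 CPM and 2.12 to 4 CPM in C57BL/6J females and males and 144.4 to 582.9 CPM and 0.149 to 0.343 CPM in CAST/EiJ. F minus M went from 4.38 to 10.50, with an interaction of 6.12 (SE 0.63, adjusted p 3.38e-09). The CAST/EiJ male libraries held under 10 mean counts, so the size of this value is less certain than its sign. Aox3, an aldehyde oxidase (chromosome 1, 58113130 to 58200698), was at 62.1 to 105.7 CPM in CAST/EiJ females and at no more than 3.17 CPM in the other 3 cells (interaction 4.97, SE 0.31).

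Kng1, Sult1a1 and Rdh19 were also highest in CAST/EiJ females. Kng1, the kininogen gene (chromosome 16, 23057865 to 23082068), had medians of 127 CPM in CAST/EiJ females and 14.4 CPM in CAST/EiJ males against 1.80 and 1.21 CPM in C57BL/6J. Sult1a1, a phenol sulfotransferase, had medians of 114 and 17.7 CPM against 13.8 and 10.7 CPM. Rdh19, of the retinol dehydrogenase family, had medians of 96.0 and 1.26 CPM against 2.19 and 0.131 CPM. The C57BL/6J males held 51 counts of Rdh19 over 8 libraries, so the size of its change is uncertain. Kng1 shares 20.2% of its 31-base sequences with Kng2 and Rdh19 18% with Rdh16f1.

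Male-biased strengthened genes besides Akr1c21 included Slc22a22, a prostaglandin transporter, and Mtmr7 and Gbp8. Slc22a22 was lower in both CAST/EiJ sexes, at 0.299 to 4.09 CPM in females and 27.9 to 36.7 CPM in males, against 36.0 to 43.3 and 117 to 148.6 CPM in C57BL/6J. Mtmr7, a phosphoinositide phosphatase, and Gbp8, a guanylate-binding protein, were higher in CAST/EiJ males, with medians of 23.6 and 12.5 CPM against 3.36 and 1.20 CPM in C57BL/6J males. The interactions were -2.72, -3.21 and -4.34.

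Reversed genes exchanged the sex with the higher level. Bcat1, the cytosolic aminotransferase of branched-chain amino acids (chromosome 6, 144993835 to 145076184), measured 6.53 to 14.1 CPM in C57BL/6J females and 30.2 to 61.4 CPM in C57BL/6J males, but 62.7 to 88.8 CPM in CAST/EiJ females and 6.53 to 11.1 CPM in CAST/EiJ males. The sexes overlapped in neither strain. F minus M was -2.18 (SE 0.18) and 2.92 (SE 0.20), and the interaction was 5.11 (SE 0.27, adjusted p 2.11e-16). In NZO/HlLtJ, where F minus M was 0.35 (adjusted p 0.0895), the sexes overlapped.

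Car9, a carbonic anhydrase of the cell membrane (chromosome 4, 43506966 to 43513729), measured 1.51 to 2.15 CPM in C57BL/6J females and 6.00 to 10.2 CPM in C57BL/6J males. In CAST/EiJ the levels were exchanged, with 6.16 to 9.87 CPM in females and 1.04 to 2.61 CPM in males. Its interaction was 4.42 (SE 0.23, adjusted p 3.35e-18). NZO/HlLtJ had the C57BL/6J direction, with medians of 1.58 CPM in females and 8.92 CPM in males.

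Aldh1a1 and Spock2 turned from higher in females to higher in males. Aldh1a1, a retinaldehyde dehydrogenase (chromosome 19, 20601961 to 20643462), lies beside Aldh1a7. It measured 7.18 to 15.9 CPM and 3.45 to 6.28 CPM in C57BL/6J females and males and 56.7 to 86.8 CPM and 381 to 556.7 CPM in CAST/EiJ, with an interaction of -3.81 (SE 0.13). Spock2, a matrix proteoglycan, had medians of 2.26 and 1.81 CPM in C57BL/6J, where the sexes overlapped, and 7.08 and 100.0 CPM in CAST/EiJ (interaction -4.07, SE 0.14). For such genes the reversal was of a small difference into a large one.

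Other reversed genes were Sec14l3, a lipid-binding protein, Gfra1, a receptor for glial cell line-derived neurotrophic factor, Marc1, a mitochondrial reductase, and Snx31, a sorting nexin. Their F minus M went from 1.70 to -1.84 for Sec14l3, from 0.56 to -2.39 for Gfra1, from -0.92 to 3.06 for Marc1 and from -2.23 to 0.59 for Snx31. The Snx31 value in CAST/EiJ females reached 11.2 CPM in 1 library and 5.51 CPM in the others, and the CAST/EiJ sexes overlapped. Snx31 is known from urothelium, whose 6 markers included none that was called and had a summed level of 10.0 to 55.9 CPM in CAST/EiJ females and 11.5 to 21.0 CPM in CAST/EiJ males. Their part in the Snx31 value was not tested.

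**Figure D4:**
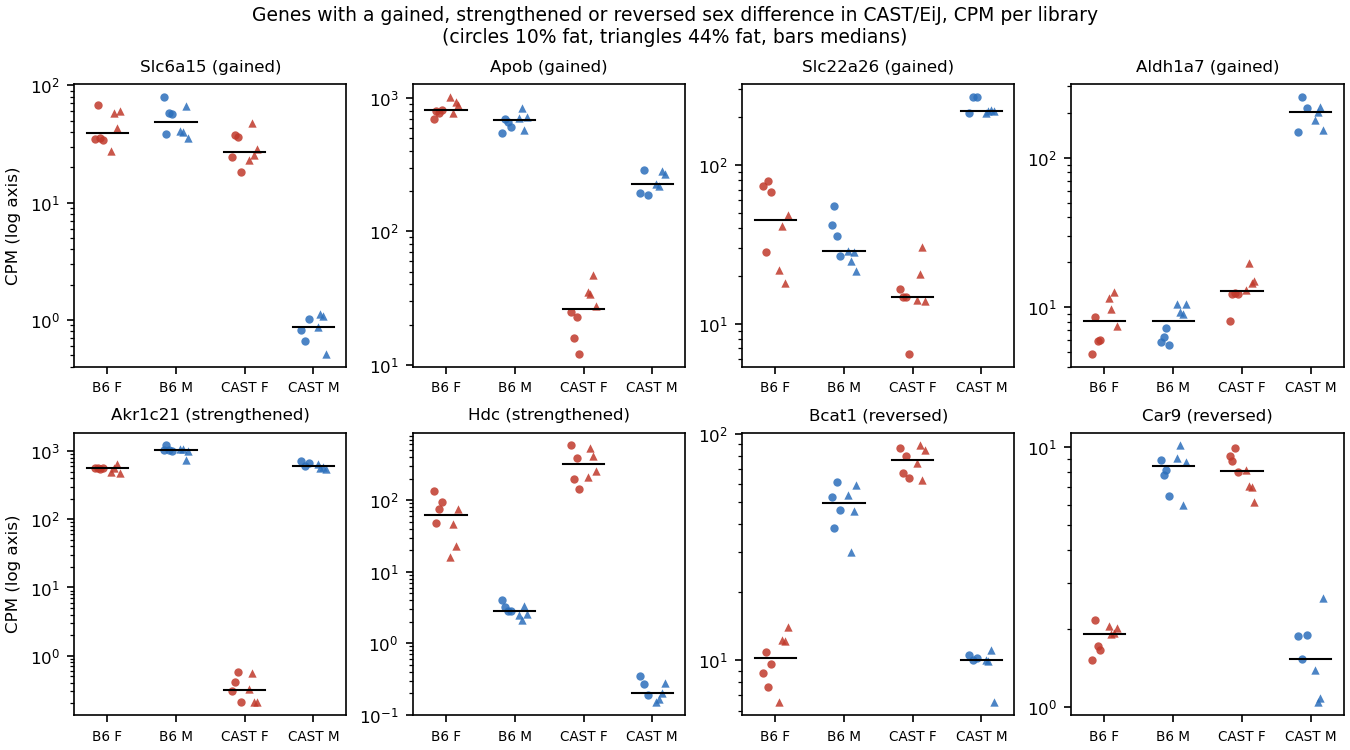
CPM of 8 genes in each library on log axes, drawn as for the lost and weakened genes. In Slc6a15, Slc22a26, Aldh1a7 and Akr1c21 1 CAST/EiJ sex stands apart from the other 3 cells, and in Bcat1 and Car9 the order of the sexes is exchanged between the strains.

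For Cyp2a4, classed as lost, and Tmem254b, classed as reversed, the value rests on very few counts. Both were near 0 in CAST/EiJ, Cyp2a4 at no more than 0.679 CPM in females and 0.390 CPM in males and Tmem254b at no more than 0.431 and 0.135 CPM. In C57BL/6J they measured 145.2 to 345.1 CPM and 56.9 to 118.5 CPM over both sexes. Cyp2a4 shares 55.9% of its 31-base sequences with Cyp2a5, and Tmem254b 75.1% with Tmem254a. Cyp2a5, reversed from -1.18 to 1.25, shares 44.9% with Cyp2a4 in turn, so the counts of these genes are uncertain.

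The list of 28 male-biased proximal tubule genes, many of them known as androgen-responsive, held 17 called genes (60.7%, against 13.3% of all tested genes and 19.7% of those with an average log2 CPM of at least 4). Of these, 2 were lost, 10 weakened and 5 strengthened, and none was gained or reversed. The lost members were Angptl7 and Cyp2a4, whose value rests on very few CAST/EiJ counts (116 in females and 63 in males). In C57BL/6J itself 24 members of the list were called as higher in males and 2 as higher in females. The median F minus M of the list was -2.41 in C57BL/6J and -2.48 in CAST/EiJ, and the median interaction was 0.37. The medians of the strains were thus close while single members differed in either direction. Among the 158 genes at least 4-fold higher in C57BL/6J males, 79 were not called. A share above 13.3% is thus not particular to this list.

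Kap, the kidney androgen-regulated protein (chosen after its values were seen), measured 14990 to 18380 CPM in C57BL/6J males and 13500 to 18110 CPM in CAST/EiJ males, but 4185 to 6139 CPM and 8109 to 11340 CPM in females. Its F minus M went from -1.64 to -0.70. Acsm3, a mitochondrial acyl-CoA synthetase chosen in the same way, went from -9.57 to -7.35, and Cyp2e1, a cytochrome of ethanol and acetone metabolism, from -4.82 to -3.72. For Cndp2, a dipeptidase, it was the male level that was lower, with medians of 1214 CPM in C57BL/6J males and 129 CPM in CAST/EiJ males against 212 and 87.6 CPM in females. Mep1a, a brush-border metalloprotease, was strengthened from -0.83 to -2.70, with a median of 288 CPM in CAST/EiJ females against 1127 CPM in C57BL/6J females, and 1806 and 2010 CPM in the males. Odc1, Cyp4b1 and Slc22a30 had F minus M values of -2.31, -5.00 and -4.09 in C57BL/6J and -2.40, -4.85 and -4.02 in CAST/EiJ, and were not called.

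The list of 27 female-biased proximal tubule genes held 15 called genes (55.6%, against 13.3% of all tested genes). Of these, 5 had a higher and 10 a lower interaction. There were 3 lost, 7 weakened, 1 gained, 2 strengthened and 1 reversed, and 1 for which neither strain was called. In C57BL/6J itself 20 members were called as higher in females and 5 as higher in males. The median F minus M of the list was 1.26 in C57BL/6J and 0.72 in CAST/EiJ. Among the 182 genes at least 4-fold higher in C57BL/6J females, 103 were not called. A share above 13.3% is thus not particular to this list either. Abcc3, an efflux pump of conjugated compounds, was weakened from 6.24 to 4.26, with a higher male level in CAST/EiJ (7.97 to 12.7 CPM against 2.28 to 3.08 CPM). Abcc4, a pump of the same family, was lost, from 1.88 to 0.04. Prlr, the prolactin receptor (chosen after its values were seen), was weakened from 5.03 to 2.86, with a median of 383 CPM in C57BL/6J females and 94.6 CPM in CAST/EiJ females. The glutathione transferase gene Gsta2 was strengthened from 2.03 to 4.72, through a male median of 11.6 CPM in CAST/EiJ against 112 CPM in C57BL/6J, and 40.5% of its 31-base sequences are shared with Gm10639.

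**Figure D5:**
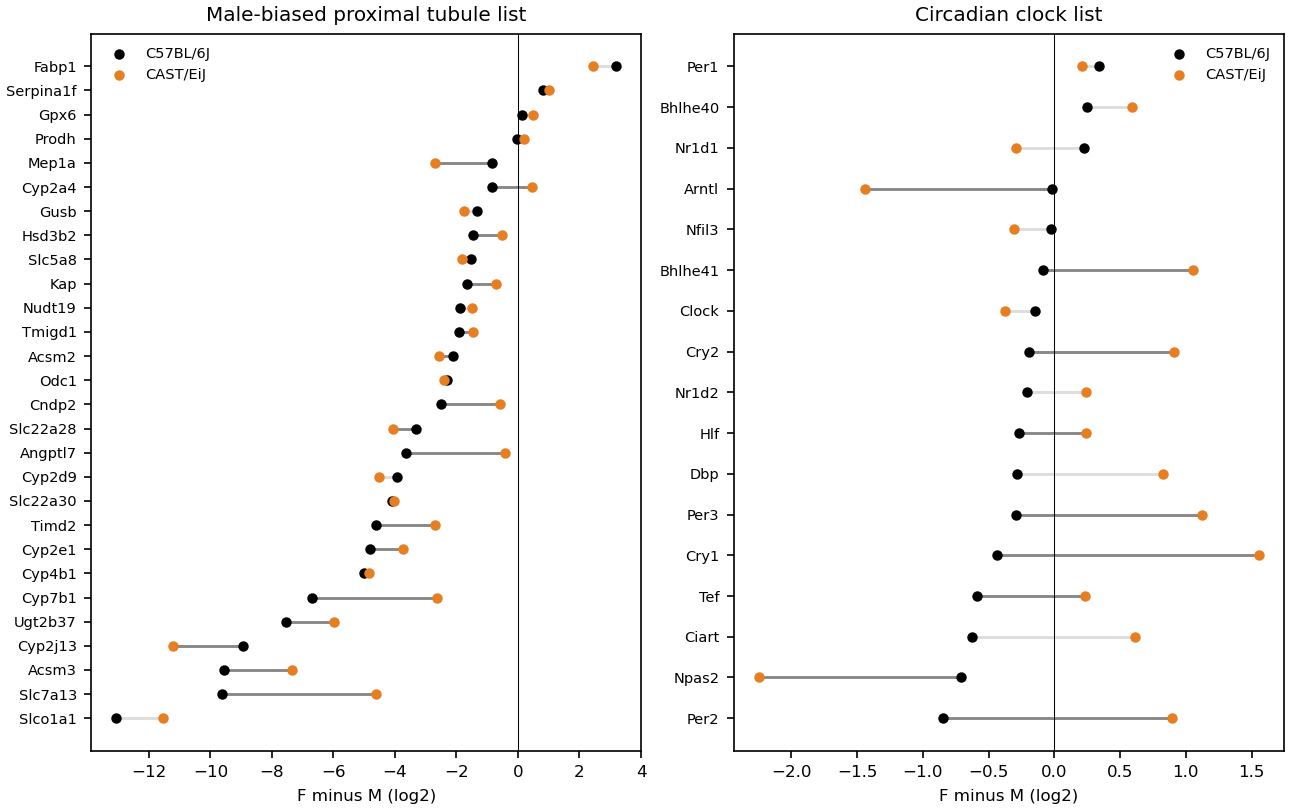
F minus M (log2) of members of the male-biased proximal tubule list and of the circadian clock list in C57BL/6J (black) and CAST/EiJ (orange). Lines joining the strains are dark where the interaction was called and pale where it was not. Most male-biased genes stay left of 0 in both strains, while Per2, Per3 and Cry1 lie left of 0 in C57BL/6J and right of 0 in CAST/EiJ.

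Hormone receptors, their coregulators and sex steroid enzymes gave 12 called genes of 36 (33.3%, against 13.3% of all tested genes), 6 in each direction. The steroid reductases Srd5a1 and Srd5a2 were both called. Srd5a2 was lost, as described above, and Srd5a1 was reversed from -1.32 to 0.26, at 7.59 to 11.4 CPM in C57BL/6J females, 20.9 to 27.1 CPM in C57BL/6J males, 13.4 to 21.5 CPM in CAST/EiJ females and 11.6 to 17.0 CPM in CAST/EiJ males. Its exons overlap Gm17108 on the same strand over 16.4% of their bases. Esr1, the estrogen receptor alpha gene, was weakened from -1.51 to -0.35, with a median of 9.13 CPM in C57BL/6J females and medians of 18.04 to 26.3 CPM in the other cells. Hsd11b1, which regenerates active glucocorticoid (chosen after its values were seen), was weakened from -2.12 to -0.58, and Hsd17b4, of peroxisomal fatty acid oxidation, was strengthened from -0.31 to -0.91. Socs2, an inhibitor of growth hormone signalling that growth hormone induces (chosen in the same way), was lost, from 2.22 to 0.28. Its medians were 50.9 and 8.88 CPM in C57BL/6J females and males and 21.0 and 19.9 CPM in CAST/EiJ. Stat5b and the glucocorticoid receptor gene Nr3c1 were not called, with interactions of 0.01 and 0.17. The androgen receptor gene lies on the X chromosome and was not among the genes counted.

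UDP-glucuronosyltransferases, which join glucuronic acid to drugs, bilirubin and steroids, had the highest share of called genes of the lists. It was 13 of 16 (81.2%, against 13.3% of all tested genes), with 5 higher and 8 lower and a median interaction of -1.27. Each list of functions, from 21.4% upward, had a share above the 19.7% of genes with an average log2 CPM of at least 4. In the lists of functions not described here the share was 23.5% to 57.1%. A raised share is thus not particular to the lists described. Ugt3a2 was reversed from -0.78 to 1.04. It measured 853.1 to 1008 CPM in C57BL/6J females, 1530 to 1604 CPM in C57BL/6J males, 390.9 to 521.7 CPM in CAST/EiJ females and 190.3 to 263.8 CPM in CAST/EiJ males, so no pair of these cells overlapped. Ugt1a2 was weakened from 10.07 to 7.83 through the male level, which was 0.233 to 1.31 CPM in C57BL/6J and 1.395 to 9.58 CPM in CAST/EiJ. The C57BL/6J males held 254 counts of Ugt1a2 over 8 libraries. Its interaction came as near to 0 as -0.995 in an alternative setting, so its size is uncertain. Ugt1a7c was strengthened from -1.46 to -2.92 and Ugt1a6a reversed from 0.80 to -0.39. The genes of the Ugt1a locus share their last exons, so between 52.0% and 64.8% of the 31-base sequences of Ugt1a2, Ugt1a6a, Ugt1a7c and Ugt1a10 are in 1 other gene of the locus, and their counts cannot be fully separated.

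The 22 organic ion transporters of the Slc22 family held 8 called genes (36.4%, against 13.3% of all tested genes). All 8 had a lower F minus M in CAST/EiJ, a call made for 7.30% of all tested genes. Besides Slc22a26 and Slc22a22 these were Slc22a19, reversed from 1.26 to -0.43, Slc22a13, weakened from 1.07 to 0.19, and Slc22a12, Slc22a7, Slc22a28 and Slc22a23. Slc22a12, the urate transporter, was strengthened from -1.08 to -1.86, and Slc22a7, a transporter of organic anions, was gained at -1.30 after 0.24 in C57BL/6J. Slc22a19 was lower in both CAST/EiJ sexes, with medians of 20.6 and 28.5 CPM against 247 and 92.2 CPM in C57BL/6J females and males. The median interaction of the family was -0.01.

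Among 18 genes of the circadian clock 10 were called (55.6%, against 13.3% of all tested genes), 8 with a higher and 2 with a lower interaction. The median interaction was 0.67. In C57BL/6J none of the 18 was called as higher in females and 4 as higher in males, while in CAST/EiJ 7 were called as higher in females and 3 as higher in males. Of all tested genes, 25.0% were higher in females and 22.9% lower in C57BL/6J, and 23.5% and 24.0% in CAST/EiJ. Among single members, the clock repressor Per2 went from -0.85 to 0.89, Cry1 from -0.44 to 1.56 and, chosen after its values were seen, Per3 from -0.29 to 1.12. The activators Arntl and Npas2, chosen in the same way, went from -0.02 to -1.44 and from -0.71 to -2.25. Tef, a clock-controlled transcription factor, was lost, from -0.59 to 0.23.

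For Per2 and Cry1 the widest spread of the 4 cells of strain and sex was in CAST/EiJ females. Per2 measured 27.6 to 142.3 CPM (median 71.2) in CAST/EiJ females and 21.1 to 78.3 CPM in CAST/EiJ males, and Cry1 2.97 to 18.95 CPM and 1.35 to 4.56 CPM, so the sexes overlapped in both. Per3 measured 40.0 to 78.0 CPM (median 60.0) and 16.1 to 43.0 CPM. The strain difference was called in females, at 2.31 for Per2, 1.61 for Cry1 and -1.35 for Arntl, and was 0.57 (adjusted p 0.0684), -0.38 (adjusted p 0.281) and 0.07 (adjusted p 0.833) in males. In the 3 CAST/EiJ female libraries of ID run 81, Per2 measured 129.1 to 142.3 CPM and Cry1 11.03 to 18.95 CPM. In those of the other runs they measured 27.55 to 81.93 CPM and 2.971 to 7.9 CPM. The run term of the fit is shared by all groups. A run difference in CAST/EiJ females alone is therefore not removed, and its part was not tested. Within the 3 runs of sample ID numbers the Per2 interaction was 1.36, 2.15 and 1.05, and that of Arntl -0.71, -2.20 and -1.07. The Npas2 call was lost with CAST/EiJ and C57BL/6J libraries alone (adjusted p 0.0673) and in 10 of 31 fits with 1 library left out. The hour of tissue collection is not given in the sources used here, and its part in these values was not tested.

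In the Cyp2, Cyp3 and Cyp7 families 8 of 24 genes were called (33.3%, against 13.3% of all tested genes), among them Cyp7b1, Cyp2e1 and Cyp2a5. Another was the strengthened Cyp2j13, whose F minus M went from -8.95 to -11.22. Cyp2j13 had a median of 1.09 CPM in C57BL/6J females and 0.189 CPM in CAST/EiJ females, with male medians of 519 and 535 CPM. The CAST/EiJ females held 87 counts of it over 8 libraries. Its interaction came as near to 0 as -0.67 in an alternative setting, so its size is uncertain. Of 14 Cyp4a, Cyp4b and Cyp4f hydroxylases of fatty acids 3 were called (21.4%, near the 19.7% of all genes with an average log2 CPM of at least 4), all higher: Cyp4f14, strengthened from 2.21 to 4.25, Cyp4a10, strengthened from 0.81 to 1.79, and Cyp4f15, weakened from -2.81 to -1.14. Cyp4f17 had an interaction of 0.33 and an adjusted p of 0.0776.

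Glutathione S-transferases gave 10 called genes of 22 (45.5%, against 13.3% of all tested genes), 7 higher and 3 lower. Gstp1 was strengthened from -0.57 to -1.67, Gsto1 weakened from 1.37 to 0.36 and Mgst3 lost, from 0.59 to -0.06. Gstp1 shares 32.2% of its 31-base sequences with Gstp2. Gsta1 was strengthened from 3.16 to 4.94, with a median of 71.4 CPM in CAST/EiJ females and 1.13 CPM in C57BL/6J females, but 80.3% of its 31-base sequences are shared with Gm3776 and the call was lost without replicate 3 of C57BL/6J males on 10% fat (1.43, adjusted p 0.141).

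Of 14 carboxylesterases, enzymes that split esters of drugs and lipids, 7 were called (50%, against 13.3% of all tested genes), 2 higher and 5 lower. Ces1e was strengthened from -0.82 to -2.98 and was lower in both CAST/EiJ sexes, at medians of 1.97 and 15.9 CPM against 45.2 and 78.6 CPM. Ces2h was weakened from -3.10 to -0.72 and was higher in both, at 27.7 and 48.6 CPM against 0.279 and 2.20 CPM. The C57BL/6J females held 111 counts of Ces2h over 8 libraries. Its interaction was as low as 0.47 in an alternative setting, so its size is uncertain. Ces1d was gained, at -1.06 after -0.19 in C57BL/6J. The pseudogene Ces2d-ps, also gained, shares 59.8% of its 31-base sequences with Ces2c.

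Amino acid transporters held 7 called genes of 22 (31.8%, against 13.3% of all tested genes), 2 higher and 5 lower. Slc3a2, the shared heavy chain of several of them, was lost, from 0.61 to 0.01, at 186.9 to 219.9 CPM and 117 to 145.6 CPM in C57BL/6J females and males and 195 to 254.9 CPM and 215.7 to 257.5 CPM in CAST/EiJ. Its partner Slc7a8 was weakened from 0.88 to 0.20. Slc38a3, a glutamine transporter, was reversed from 0.66 to -1.14.

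Serpins, major urinary proteins and other plasma proteins gave 6 called genes of 27 (22.2%), a share near the 19.7% of all genes with an average log2 CPM of at least 4. Serpina1b and Serpina1d, of the antitrypsin family, were weakened from -2.67 to -0.63 and from -3.59 to -1.56. Apoh, a plasma apolipoprotein, was weakened from -6.59 to -4.58. C4b, a complement component, was lost, from -1.44 to 0.16. Serpina1d shares 49.5% of its 31-base sequences with Serpina1b and C4b 45.6% with C4a, and the Apoh call was absent on the deposited log2 matrix (0.21, adjusted p 0.401).

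Markers of kidney segments and of other cell types were tested in the same fit. No marker was called among 7 of the distal convoluted tubule, 10 of intercalated cells, 9 of endothelium, 10 of stroma and smooth muscle, 10 of B and plasma cells and 10 of adipocytes, and 1 each was called among 9 of podocytes (Magi2), 7 of principal cells (Aqp4), 11 of macrophages (Csf1r) and 10 of T and NK cells (Trac). Of 11 markers of the first proximal tubule segments 3 were called, and of 9 of the last segment 4, Slc7a13 among them. Tubular injury markers gave 4 called genes of 19 (21.1%), Krt8, Il34, Sox9 and Spp1. The share was 13.3% over all tested genes and 19.7% over those with an average log2 CPM of at least 4. Of the thick ascending limb markers 3 of 9 were called (33.3%) and of the thin limb markers 2 of 7 (28.6%). Summed adipocyte markers were 2970 to 5030 CPM and 1930 to 3400 CPM in C57BL/6J females and males and 4050 to 7010 CPM and 3270 to 5060 CPM in CAST/EiJ. The part of these cell types in the genes above was not tested.

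Called genes were more frequent among genes with a high level. The share was 3.47% of 4662 genes with an average log2 CPM under 0, 12.8% of 5936 genes between 0 and 4 and 19.7% of 7597 genes at 4 or above. By chromosome the share ran from 11% on chromosome 5 to 18.2% on chromosome 19, where Aldh1a1, Aldh1a7, Slc22a26 and Slc22a19 lie. Among 14882 pairs of adjacent tested genes that do not overlap, the second was called in 14.1% of all pairs and in 20% of those whose first gene was called. In 391 pairs both were called, and the interaction had the same sign in 70.8% of these, against 53.7% of all pairs. These are descriptions, and members of gene families that lie side by side can share sequence.

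No difference between the diets was detected in the interaction. With edgeR 0 of 18195 genes had an interaction that differed between 44% and 10% fat, while 1105 (6.07%) did at an unadjusted p under 0.05. DESeq2 called 2 and limma on the deposited log2 matrix 2. Among the 44% fat groups alone 1393 genes were called, and among the 10% fat groups alone 1173, of which 1262 and 1107 were among the 2422. The leading genes had like values on both diets, with -6.16 and -6.09 for Igf2, 8.31 and 8.25 for Pzp, -9.83 and -9.97 for Akr1c21 and 5.18 and 5.03 for Bcat1 on 10% and 44% fat.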

How the data were processed

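Kidney RNA was sequenced as poly(A) libraries in 47 samples, read as 100 bp paired ends per the labels' protocols. The authors deposited estimated counts per gene (25.9% of values not whole) and a variance-stabilized matrix on a log2 scale. GRCm38 and DESeq2 are named in the submitters' processing notes, and the aligner, the counter and their use of strand are not given in the sources used here. The use of a strain-specific genome for CAST/EiJ reads is not stated there either. Every sample column was matched to a sample by its label.

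Expected counts, as deposited, were rounded and tested with edgeR 4.0.16 (R 4.3.3), with TMM scaling, a filter on low counts that kept 18786 of 22474 genes, robust quasi-likelihood F tests, 12 group means over all 47 libraries and a term for 3 runs of sample ID numbers (33 residual degrees of freedom). Adjusted p-values are Benjamini-Hochberg values over the 18786 genes, of which the 18195 autosomal ones were counted. The standard error was taken from the F statistic. CPM used TMM-scaled library sizes. All adjusted p-values in the text are from edgeR unless another tool is named. Interactions were simulated in 50 genes per fold, all autosomal with an average log2 CPM of 1 or more, among 18662 tested genes. The fit recovered 48% of 1.25-fold, 88% of 1.5-fold, 94% of 2-fold and 100% of 4-fold changes, and 6.78% of 177 calls were unchanged genes. Genes at lower levels were given no change, so recovery there was not measured.

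Named genes were, per class, the 4 highest and 4 lowest interactions from genes with 10 or more mean counts in each of the 4 cells of strain and sex and a mean log2 CPM of 1 or more, up to 6 called genes under that minimum, up to 4 members of each of 12 lists, and genes stated to be chosen after their values were seen. List members and markers named by their F minus M values alone, such as Abcc4, Slc38a3 and Odc1, were also chosen after their values were seen. The genes, classes and lists were chosen with earlier results of these data known. Shared sequence was counted as 31-base sequences of transcripts found in another gene. Between libraries of a group the chi-square per degree of freedom was 11.7 to 57.3 over 45 pairs, so none was a repeat of another. A few genes that met the rule are not reported here. Alternatives were other scalings, tools, filters and library sets.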

Additional observations from a re-analysis of the deposited data

Results flagged for a closer look

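The sex difference itself differed between the strains by the interaction test in 2422 genes, which are the genes described above. Within each strain and sex, values of the named genes were examined for a single library that lay apart from the other libraries by Dixon's criterion at the 95% level. This was so in 36 of 344 combinations of gene, strain and sex, 26 with a high and 10 with a low value. The criterion marks about 1 in 20 sets of independent values with a normal spread. Here CPM values were used without logs, both diets were pooled and the genes share libraries. The 36 of 344 therefore cannot be read as an excess. Each value is given against the range of the other libraries of its strain and sex.

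In replicate 4 of CAST/EiJ males on 44% fat such values were those of Slc7a12 (111.8 CPM against 26.32 to 55.29 CPM), Ugt1a2 (9.584 CPM against 1.395 to 3.552 CPM), Gsta2 (29.85 CPM against 5.083 to 13.65 CPM), Marc1 (1.358 CPM against 0.373 to 0.7799 CPM), Bcat1 (6.534 CPM against 9.885 to 11.12 CPM) and Gsta1 (4.818 CPM against 1.284 to 2.61 CPM). The same library also lay apart in Mep1a (1675 CPM against 1791 to 1848 CPM), Esr1 (33.85 CPM against 20.28 to 25.38 CPM), Cyp2e1 (3145 CPM against 4427 to 4959 CPM), Ugt3a2 (263.8 CPM against 190.3 to 220.6 CPM) and Kap (13500 CPM against 16580 to 18110 CPM). For replicate 3 of C57BL/6J males on 44% fat these were Angptl7 (21.55 CPM against 4.406 to 11.71 CPM), Dock2 (6.999 CPM against 2.412 to 3.861 CPM), Akr1c21 (739 CPM against 1012 to 1217 CPM), Gbp8 (2.418 CPM against 0.7105 to 1.342 CPM) and Hrg (21.72 CPM against 7.056 to 11.17 CPM). Replicate 1 of C57BL/6J females on 44% fat lay apart in Igf2 (49.77 CPM against 188.6 to 299.9 CPM), Per3 (37.29 CPM against 14.88 to 25.47 CPM) and Kap (4185 CPM against 5260 to 6139 CPM). In replicate 2 of CAST/EiJ males on 44% fat they were Col19a1 (21.54 CPM against 26.49 to 30.16 CPM) and Slc3a2 (257.5 CPM against 215.7 to 224.6 CPM). For replicate 2 of CAST/EiJ females on 44% fat these were Dock2 (21.13 CPM against 13.53 to 16.39 CPM) and Cyp2j13 (0.6083 CPM against 0.09366 to 0.2965 CPM). Replicate 4 of C57BL/6J females on 44% fat lay apart in Cyp2a4 (216.9 CPM against 145.2 to 174.7 CPM) and Cyp4f15 (0.3197 CPM against 0.06014 to 0.1641 CPM). In replicate 3 of C57BL/6J females on 44% fat they were Esr1 (12.59 CPM against 7.969 to 9.907 CPM) and Ces1d (450.4 CPM against 193.3 to 308.3 CPM). For replicate 1 of CAST/EiJ females on 10% fat the gene was Aldh1a1 (56.7 CPM against 72.7 to 86.75 CPM). Replicate 1 of CAST/EiJ females on 44% fat lay apart in Snx31 (11.17 CPM against 3.971 to 5.511 CPM). In replicate 3 of CAST/EiJ males on 10% fat it was Snx31 (2.077 CPM against 3.339 to 4.078 CPM). For replicate 3 of CAST/EiJ males on 44% fat the gene was Tmem254b (0.1354 CPM against 0 to 0 CPM). Replicate 2 of CAST/EiJ males on 10% fat lay apart in Hrg (121.3 CPM against 32.19 to 68.47 CPM). In replicate 3 of C57BL/6J males on 10% fat it was Mep1a (2271 CPM against 1966 to 2037 CPM). For replicate 2 of C57BL/6J females on 10% fat the gene was Ces2h (0.5106 CPM against 0.1384 to 0.3068 CPM). Replicate 1 of C57BL/6J males on 10% fat lay apart in Ces2h (3.542 CPM against 1.739 to 2.487 CPM). In replicate 2 of C57BL/6J males on 10% fat it was Gsto1 (24.3 CPM against 15.65 to 19.69 CPM).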

How the results depend on the processing

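The number of called genes was between 2262 (no filter on low counts) and 3005 (limma-voom with sample weights) over the settings that used both diets and left out no library, against 2422, and the share with a higher F minus M was 44.2% to 51.3% over all settings against 45.1%. DESeq2 size factors gave 2413, the DESeq2 Wald test 2666, limma on the deposited log2 matrix 2575, the CAST/EiJ and C57BL/6J libraries alone 2547 and no term for ID runs 2446. Leaving out 1 library at a time gave 2117 to 2573 called genes, 556 to 738 lost, 404 to 501 weakened, 492 to 660 gained, 297 to 448 strengthened and 252 to 309 reversed, and 0 to 3 for the diet difference. Without the 2 libraries with the most outlying values, an alternative chosen after seeing the data, the classes held 572, 389, 692, 447 and 292 genes. With fewer libraries in each contrast, the 10% fat groups alone gave 1173 called genes, with 361 lost, 161 weakened, 361 gained, 170 strengthened and 115 reversed, and the 44% fat groups alone gave 1393, with 214 weakened, 135 strengthened and 141 reversed. For the diet difference, called for 0 genes by edgeR, the DESeq2 Wald test called 2, limma-voom 1, limma on the log2 matrix 2 and the fit of CAST/EiJ and C57BL/6J alone 1, and the cause was not tested. Among the named genes no direction was reversed. Within single runs of ID numbers, which gave values with no test, 66 values of named genes differed from the value over all runs by more than 2 of its standard errors and 201 did not. Calls of Cyp2a4, Tmem254b, Gsta1, Cyp4f15, Cyp4a10, Ces1d, Ces2d-ps, Apoh, Tef, Per2, Arntl, Npas2 and Per3 were lost under at least 1 setting, 1 diet alone included, and that of Tmem254b in 4 of 31 fits with 1 library left out. No paired analysis was possible because the replicate numbers were given in accession order and the labels tie no libraries of different groups together. CAST/EiJ males on 10% fat had 3 libraries, and genes with few counts in a cell have uncertain sizes of change.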
